A study of Mus musculus with 30 samples.

Results

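Genes of cytotoxic lymphocytes were followed in a pilot table of smoothed single-cell expression from 8 organs of mice with and without collagen-induced arthritis (CIA). The members, chosen by name, were Gzma, Gzmb, Nkg7, Prf1, Klrk1, Ncr1, Klrb1c and Klrd1, which are 8 of the 23013 gene rows in the table. All 8 were present. The 30 libraries came from 8 male DBA1/J mice aged 8 to 12 weeks. The 4 CIA mice, named S1, S2, S6 and S7 here, had received 100 µg of bovine type II collagen in complete adjuvant and a booster in incomplete adjuvant on day 20, and had arthritis scores from 3 to 8. The 4 healthy mice (H7, H6, H4 and H3) were injected with PBS and scored 0. Blood held 4 healthy and 3 CIA mice, as did lymph node. Joint, lung, muscle, skin, spleen and thymus held 1 mouse per state. Blood was a density-gradient mononuclear fraction with the red cells lysed, and the dissected organs had been frozen and thawed before cells were harvested.

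NK cells and cytotoxic T lymphocytes kill a target by releasing granules into the contact between both cells. Perforin, encoded by Prf1, opens pores in the target membrane, through which granzymes, the serine proteases encoded by Gzma and Gzmb, enter and trigger cell death. Nkg7 is a protein of the granule membrane. Whether the granules are released is set by receptors that bind ligands on the target: Klrk1 encodes the activating receptor NKG2D, Ncr1 the activating receptor NKp46, Klrb1c the NK1.1 antigen and Klrd1 the CD94 chain that pairs with NKG2 proteins.

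The members lie on 5 chromosomes of GRCm38. Klrb1c (128778485 to 128788641), Klrd1 (129588092 to 129598775) and Klrk1 (129610323 to 129623903) are neighbours on chromosome 6, in the NK receptor gene complex. Nkg7 and Ncr1 lie on chromosome 7, Prf1 on chromosome 10, Gzma on chromosome 13 and Gzmb on chromosome 14. Gzma lies within the longer gene Cdc20b, which had 0 units in the whole table. Promoter windows of 300 bases, 250 before to 50 after a transcript start, were matched for 7 members in RefSeq (GRCm38.p6). The transcript start used lies inside the gene bounds by 85 bases in Prf1 and by 39 in Klrk1, and at the end of the gene in the other 5. They were searched on both strands for 4 short motifs bound by transcription factors of cytotoxic lymphocytes. The Runx motif TGTGGT was present in 7 of the 7 windows, against 16.8% of all 32817 promoter windows of that length. The T-box core GGTGTG was in 1 of 7 (19.1% of all windows), the Ets core AGGAAG in 3 of 7 (35.4%) and the STAT motif TTCNNNGAA in 2 of 7 (8.29%). The Runx and T-box motifs share letters and can overlap. A match is a run of letters and no evidence of binding. The windows of the 4 granule genes are shown as examples of the Runx match, with each TGTGGT match, or its complement ACCACA, in capitals. Gzma is at chr13:113100932-113101231 on the minus strand, Gzmb at chr14:56262285-56262584 on the minus strand, Nkg7 at chr7:43436888-43437187 on the plus strand and Prf1 at chr10:61297586-61297885 on the plus strand.
Gzma: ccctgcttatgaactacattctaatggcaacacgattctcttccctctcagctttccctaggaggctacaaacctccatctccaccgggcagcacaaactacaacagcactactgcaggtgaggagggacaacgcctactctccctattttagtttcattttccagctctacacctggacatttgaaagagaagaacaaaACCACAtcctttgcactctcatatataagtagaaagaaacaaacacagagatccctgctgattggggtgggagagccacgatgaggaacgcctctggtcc
Gzmb: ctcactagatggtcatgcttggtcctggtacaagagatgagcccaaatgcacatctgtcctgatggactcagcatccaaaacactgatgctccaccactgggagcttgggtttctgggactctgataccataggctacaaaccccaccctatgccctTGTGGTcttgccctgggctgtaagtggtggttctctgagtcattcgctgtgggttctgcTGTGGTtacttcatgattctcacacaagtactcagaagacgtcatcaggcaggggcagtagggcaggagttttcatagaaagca
Nkg7: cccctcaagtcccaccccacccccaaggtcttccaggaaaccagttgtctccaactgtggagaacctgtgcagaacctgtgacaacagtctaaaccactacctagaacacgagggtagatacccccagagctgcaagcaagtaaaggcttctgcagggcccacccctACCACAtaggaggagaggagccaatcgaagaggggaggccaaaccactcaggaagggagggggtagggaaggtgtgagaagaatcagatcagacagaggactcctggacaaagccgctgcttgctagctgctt
Prf1: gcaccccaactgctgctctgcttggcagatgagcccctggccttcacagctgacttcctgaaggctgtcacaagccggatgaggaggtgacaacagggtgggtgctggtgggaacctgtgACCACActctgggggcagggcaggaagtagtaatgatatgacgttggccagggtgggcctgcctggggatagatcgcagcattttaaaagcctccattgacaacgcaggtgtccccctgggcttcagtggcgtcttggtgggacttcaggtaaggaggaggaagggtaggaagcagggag
Counted from the transcript start of each window, the first base of the match lay at -50 in Gzma, -83 in Nkg7 and -130 in Prf1. Gzmb held matches at -93 and -34. Ncr1 also held 2, at -176 and -41, Klrb1c had 1 at -89 and Klrk1 had 1 at -129.

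Levels are given in UPM, the units of a gene per 1000000 units, summed over all barcodes of a mouse and organ. A unit is the smoothed whole-number value of the table, in which each barcode carries the sum of itself and its nearest neighbours, so that 1 molecule can be listed in several barcodes. In such sums, fewer cells of a type and less RNA per cell cannot be told apart. The libraries held 27 to 934 barcodes and 217494 to 7886790 units. They fell into 2 kinds: in 11 libraries, 37.1 to 58.1% of the listed genes never passed 1 unit in a barcode, and in the other 19 this share was 5.25 to 21.3%. All 9 lymph node libraries, both thymus libraries and 4 of 8 blood libraries were among the 19. The blood libraries of S6, S7 and H7 and 1 of 2 of H4 were among them. Sample titles end in CIA (13 libraries) or 2CIA (17), with no stated meaning. All 3 blood libraries of CIA mice end in 2CIA, against 2 of 5 from healthy mice. In lung, muscle, skin, spleen and thymus this ending cannot be told apart from state.

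The members were sparse genes, with 16231 units in all, 0.0215% of the table. Nkg7 and Klrd1 were each listed in 22 of 30 libraries, Klrk1 in 19, Gzma in 14, Gzmb in 8, Prf1 in 7, Ncr1 in 6 and Klrb1c in 3. Of the 24 listings of Gzmb, Prf1, Ncr1 and Klrb1c, 18 fell in the 11 libraries that kept single-unit genes. Gzmb and Klrb1c had no listing in the other 19. The part of this difference in the levels below was not tested. No member was listed in the blood library of S7, the joint library of H3 or 1 of 2 joint libraries of S1, and all 8 were listed in the blood of H6 and the spleen of S1.

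The summed level of the 8 members had its highest means in the blood and lymphoid organs. It averaged 469 UPM over 7 blood samples (range 0 to 1126), 390 in spleen (198 to 582), 354 in thymus (309 to 398) and 228 in lymph node (162 to 342). Lung followed with 111 (69.1 to 153), muscle with 64.0 (61.5 to 66.6), skin with 17.4 (8.45 to 26.3) and joint with 10.6 (0 to 21.2). The ranges of blood and spleen, spleen and thymus, thymus and lymph node, and skin and joint overlapped, so these neighbours in the order do not differ beyond their spread. The ranges of lymph node, lung, muscle and skin did not overlap with each other, those of lung, muscle and skin being 1 mouse per state. The blood range took in that of every other organ, from S7 (0), H4 (74.8) and S2 (108) to S6 (1057) and H3 (1126). Different members led in different organs. The organ with the highest mean was thymus for Gzma, lymph node for Nkg7, spleen for Klrd1, Ncr1 and Klrb1c, and blood for Gzmb, Prf1 and Klrk1. The blood means of Gzmb and Prf1 were led by H3 (59.8 and 120) and that of Klrk1 by S6 (334). Klrd1 ran from 36.7 to 195 in spleen, 56.4 to 222 in lymph node and 0 to 227 in blood.

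**Figure D1:**
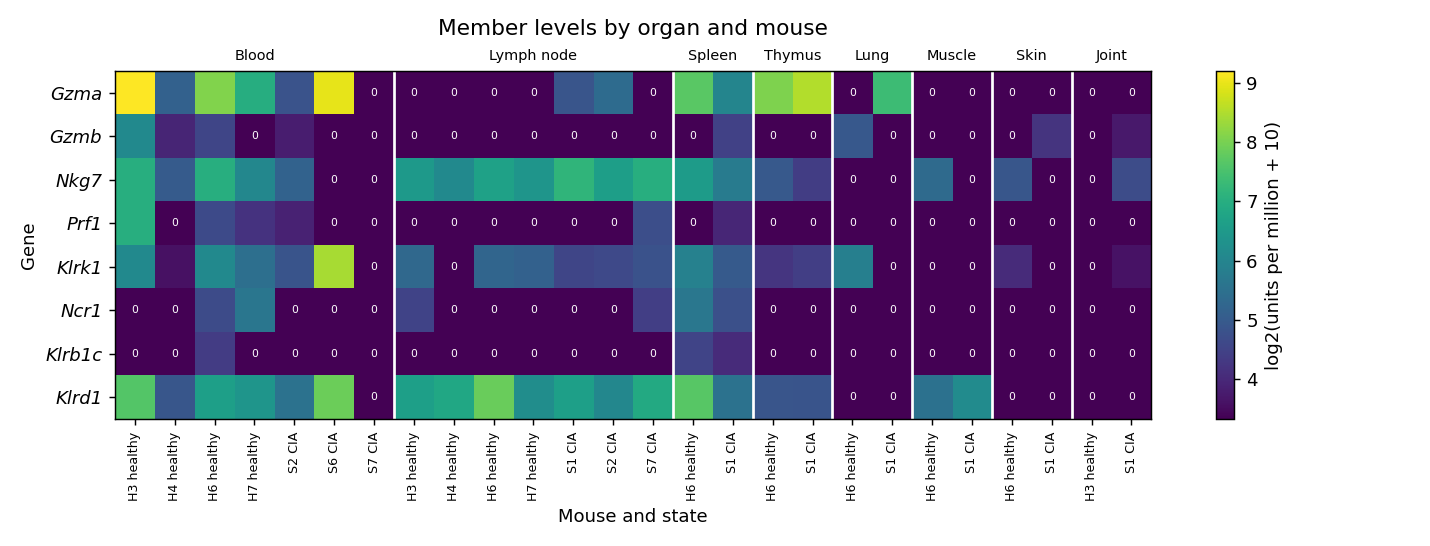
Level of each member in each mouse and organ, as the log2 of UPM plus 10 (colour); a 0 marks a gene listed at 0. Gzma is bright in both thymi and in the blood of H3, S6, H6 and H7, and low or 0 in that of H4, S2 and S7. It is also bright in the spleen of H6 and the lung of S1, and listed at 0 in every healthy lymph node. Nkg7 and Klrd1 are above 0 in all 7 lymph nodes.

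The granule proteases were measured first. In blood, the healthy mouse H3 had 579 UPM of Gzma, H6 had 264, H7 had 117 and H4 had 25.2. Of the CIA mice, S6 had 495, S2 had 18.3 and S7 was listed at 0. The groups overlapped, with the second highest of the 7 values in a CIA mouse. In lymph node Gzma was listed at 0 in all 4 healthy mice and in S7, and stood at 19.4 in S1 and 31.7 in S2. In thymus it reached 260 in H6 and 357 in S1, and in spleen 199 in H6 and 54.4 in S1. Lung showed 153 in S1 and a listing of 0 in H6, while the T cell genes summed to 0 in the lung of S1 and to 105 in that of H6, and the neutrophil genes to 17364 and 467. Joint, muscle and skin had no Gzma unit in either state. Gzmb, in contrast, was at low levels throughout: 59.8 in the blood of H3, 13.6 in H6, 5.33 in H4, 3.77 in S2 and 0 in H7, S6 and S7. It was listed at 0 in all lymph node and thymus samples. Elsewhere it stood at 20.9 in the lung of H6, 11.9 in the spleen, 8.45 in the skin and 3.19 in the joint of S1. The lung value of Gzmb rests on 10 units, with no more than 1 in a barcode, in a library where 55.2% of the listed genes never passed 1 unit. In the lung library of S1, where Gzmb was listed at 0, this share was 16.9%, and Gzmb had no listing in any of the 19 libraries of that kind.

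Prf1 and Nkg7, the other granule genes, differed from each other in where they were listed. Prf1 stood at 120 in the blood of H3, 15.0 in H6, 8.14 in H7, 4.85 in S2 and 0 in H4, S6 and S7. Outside blood it appeared in the lymph node of S7 (16.8) and the spleen of S1 (5.61) and in no other sample. In H3 blood, Prf1 and Nkg7 rest on 26 units each and Gzmb and Klrk1 on 13 each. Each was listed in 13 of 27 barcodes, of 4 distinct profiles, with no more than 2 units in a barcode. Blood Nkg7 was at 120 UPM for H3, 118 for H6, 55.9 for H7 and 22.3 for H4, and at 25.9 for S2 and 0 for both S6 and S7. On this scale the S2 value reached into the healthy range. The overlap depended on the scaling: on the trimmed-mean scale of the test below S2 was at 38.2 and the lowest healthy mouse, H4, at 48.1, and with globin left out of the totals at 41.6 and 46.2, while by the median of ratios they were at 44.6 and 39.9. Globin made up 50.7 and 56.1% of the units in the 2 blood libraries of H4. In the lymph nodes Nkg7 was at 80.1, 59.4, 93.0 and 73.1 in H3, H4, H6 and H7 and at 134, 88.1 and 118 in S1, S2 and S7. Those groups overlapped between 88.1 and 93.0, and also by the median of ratios (S2 at 89.8, H6 at 91.3). On the trimmed-mean scale they did not, with healthy nodes at 61.9 to 89.0 and CIA nodes at 90.3 and above. Nkg7 was not called in either organ by the test below. In UPM it stood at 84.4 and 44.2 in the spleens of H6 and S1 and at 21.3 and 10.9 in their thymi.

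Among the receptors, Klrd1 and Klrk1 were each above 0 in 19 of 26 samples of a mouse and organ. The blood level of Klrd1 was 189 UPM for H3, 90.4 for H6, 74.0 for H7 and 19.9 for H4, and 227 for S6, 36.1 for S2 and 0 for S7. In lymph node Klrd1 ranged from 63.9 to 222 in the healthy mice and from 56.4 to 109 in the CIA mice, and the groups overlapped. Klrk1 stood in blood at 334 in S6, and at 2.05 to 59.8 in the 4 healthy mice, 18.9 in S2 and 0 in S7. Its healthy and CIA groups overlapped in lymph node, at 0 to 29.3 and 13.4 to 17.9. Ncr1, a marker that NK cells and few other cells carry, was listed in 6 libraries: spleen of H6 (40.5) and S1 (17.3), blood of H7 (39.2) and H6 (15.4), and lymph node of H3 (12.8) and, in one of its 2 libraries, S7 (11.2 over both). Klrb1c was listed in the spleen of H6 (12.9) and S1 (6.47) and the blood of H6 (10.8), and nowhere else.

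**Figure D2:**
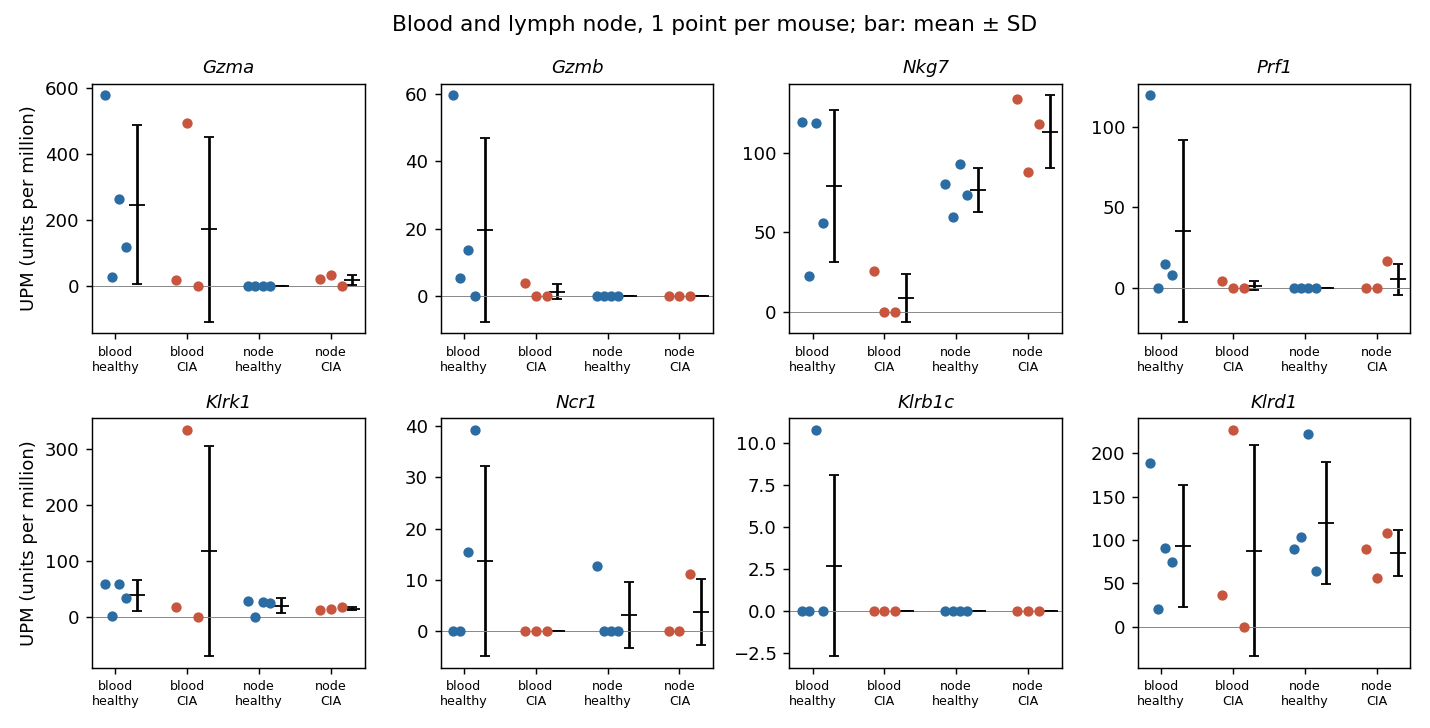
UPM of each member in blood and lymph node, 1 point per mouse (blue healthy, red CIA), with mean ± SD in black. In blood the healthy and CIA points of Gzma, Klrk1 and Klrd1 overlap widely, and in lymph node every point of Nkg7 and Klrd1 lies above 0 in both states.

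The comparison of CIA with healthy blood asked whether the members' levels differ with arthritis. No member passed the test. Of 4559 genes tested, 10 were called at an adjusted p under 0.05 (0.219%), and 0 of the 4 members that passed the filter on low values were among them, with 2 at an unadjusted p under 0.05, as were 460 of the 4559 genes. Fitted differences are CIA minus healthy on the log2 scale of UPM plus 10, after trimmed-mean scaling, where the median gene stood at -0.43. Nkg7 differed by -2.28 ± 0.98 (SE; limma adjusted p = 0.458) and Gzma by -1.84 ± 0.89 (adjusted p = 0.486). Leaving out 1 mouse moved Gzma to -0.70 (without S7) or -3.11 (without S6) and Nkg7 to between -1.85 and -3.12, and a pseudocount of 50 or 1 moved Nkg7 to -1.03 or -4.42 and Gzma to -1.01 or -3.00, with no call. Klrd1 differed by -0.97 ± 0.92 (adjusted p = 0.744) and Klrk1 by 0.15 ± 1.06 (adjusted p = 0.983), and leaving out 1 mouse turned the sign of both: Klrd1 moved to 0.12 without S7, and Klrk1 to -0.96 without S6 and 1.19 without S7. The mean levels were 79.1 ± 48.1 (SD, n = 4) against 8.63 ± 14.9 (n = 3) UPM for Nkg7 and 246 ± 243 against 171 ± 281 for Gzma. With another scaling the median gene moved to -0.37 (median of ratios) or -0.10 (total only).

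The 4 members under the filter were compared by a two-sided exact permutation test over mice, for which the 35 splits allow a p of 0.0571 at the least, so it could not pass 0.05 for any member and its p are given as descriptions. For values with as many zeros as Ncr1 and Klrb1c the least was higher, at 0.286 and 0.857. On the trimmed-mean scale Gzmb averaged 1.86 in CIA and 16.2 in healthy blood (exact p = 0.229). Prf1 averaged 2.39 and 25.6 (exact p = 0.229). Of the healthy mice, H3 stood highest in both, at 39.4 for Gzmb and 78.8 for Prf1. Ncr1 and Klrb1c were listed at 0 in all 3 CIA mice and averaged 14.1 and 2.74 in healthy mice (exact p = 0.571 and 1).

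Marker genes of other cell types were also set beside the blood result. The summed level of 13 T cell genes was 0 to 167 UPM in CIA and 214 to 768 in healthy blood, and that of 7 neutrophil genes 5235 to 72887 against 1591 to 5314, 2 ranges that overlap. The 8 monocyte and macrophage genes summed to 3326 to 11768 against 393 to 3007. By the test, 0 of 6 T cell genes, 0 of 4 monocyte and macrophage genes and 1 of 6 neutrophil genes were called. Retnlg, a neutrophil secreted factor, passed the test (4.25 ± 0.79, limma adjusted p = 0.0103). Cd3d, a T cell receptor subunit and the T cell gene with the smallest p, differed by -2.91 ± 0.92 (adjusted p = 0.309) and was listed at 0 in S6 and S7, as were all 13 T cell genes. The genes with the smallest p of the other lists were Ly6c2 of monocytes (3.52), Cd79a of B cells (-1.24), Siglech of plasmacytoid dendritic cells (-1.82), Hba-a2 of erythroid cells (-2.20), Pecam1 of endothelium (-1.19) and Mcpt8 of basophils (-0.11), and none of these was called. The part of these lists in the members' levels was not tested. Of the genes that act with the members, 0 of 3 NK receptor genes tested, 0 of 7 adaptor genes, 0 of 7 granule and effector genes and 0 of 3 lineage transcription factors were called. The genes with the smallest p in these lists were Fcgr3, an Fc receptor shared with myeloid cells (1.56 ± 0.96, adjusted p = 0.589), its signalling chain Fcer1g (1.86 ± 0.60, adjusted p = 0.309), the chemokine Ccl5 (-1.65 ± 0.85, adjusted p = 0.522) and Zeb2 (2.09 ± 0.83, adjusted p = 0.426).

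In lymph node, CIA and healthy mice could be compared for 2 members, and neither passed the test. Of 5060 genes, 1 was called (0.0198%). Nkg7 differed by 0.55 ± 0.32 (limma adjusted p = 0.963) and Klrd1 by -0.31 ± 0.39 (adjusted p = 0.963), with the median gene at 0.09. No tested member had an unadjusted p under 0.05, against 214 of all genes. Over the alternatives run Nkg7 ranged from 0.40 (pseudocount 50) to 1.34 (libraries ending in 2CIA alone) and Klrd1 from -0.52 (without S7) to 0.00020 (without H6), with no call. Mean levels were 113 ± 23.1 (SD, n = 3) in CIA and 76.4 ± 14.0 (n = 4) in healthy nodes for Nkg7, and 85.0 ± 26.4 and 120 ± 70.0 for Klrd1. By the exact permutation test, Gzma on the trimmed-mean scale averaged 17.1 in CIA nodes and was listed at 0 in healthy nodes (exact p = 0.286, the least that values with 2 of 7 nodes above 0 allow). Prf1, Klrk1 and Ncr1 gave exact p of 0.857, 0.743 and 0.857, where the least were 0.857, 0.0571 and 0.286. Gzmb and Klrb1c were listed at 0 in every node. Of the genes of the pathway, 0 of 1 NK receptor, 0 of 9 adaptors, 0 of 9 granule and effector genes and 0 of 4 transcription factors tested were called. Xcl1, a chemokine of NK and CD8 T cells, had the smallest p among the effector genes (-2.27 ± 0.69, adjusted p = 0.963). It was listed at 0 in S1 and S2, at 78.6 UPM in S7 and at 36.1 to 186 in the healthy nodes. The smallest p of the other 3 lists belonged to Cd226 (-0.31), Sh2d1a (1.41) and Gata3 (-0.56). Those of the marker lists of other cells belonged to Bcl11b (-0.96), Ms4a1 (0.57), Bst2 (1.24), S100a8 (1.26), Ly6c2 (0.79), Hba-a1 (-4.22), Acta1 (-0.44), Cd8b1 (-0.35) and Pecam1 (-0.09), none of them called.

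Lymph node against blood, with state as a covariate, called 1 of the 4 members tested. Gzma was lower in lymph node, with a fitted log2 difference of -2.88 ± 0.68 (limma adjusted p = 0.0110), where the median gene stood at 0.42. Of 4880 genes 677 were called in either direction (13.9%), so the share among members was 1 of 4 against that background. Over 7 mice each, Gzma averaged 214 UPM in blood (0 to 579) and 7.31 in lymph node (0 to 31.7), where 2 nodes were above 0. Gzma passed the filter on low values through its blood level, so the call concerns a member admitted by the organ where it was higher. S7 was the mouse whose blood was listed at 0. Gzma was lost as a call when the libraries ending in 2CIA alone were used (-2.51 ± 0.93, adjusted p = 0.0571). With the mouse as a replicate block, Gzma differed by -2.89 (adjusted p = 0.0153). Without the block, a pseudocount of 1 or 50 gave -4.80 or -1.60 for Gzma, both called. Nkg7 was at 1.16 ± 0.52 (adjusted p = 0.139), Klrd1 at 0.57 ± 0.50 (adjusted p = 0.486) and Klrk1 at -0.72 ± 0.59 (adjusted p = 0.462). Over the alternatives these ranged from 0.56 to 2.10, 0.059 to 1.03 and -1.08 to -0.44, with no call. All 9 node libraries were of the kind with few single-unit genes, against 4 of 8 in blood, and T cell genes summed to 1425 to 2945 UPM in node and 0 to 768 in blood. Erythroid genes summed to 95.3 to 140488 in node and 35799 to 516413 in blood, and neutrophil genes to 28.0 to 3140 and 1591 to 72887. Of the erythroid genes 4 of 5 were called lower (Hbb-bs -6.27, Hba-a1 -6.26, Hbb-bt -6.11 and Alas2 -3.68), and of the neutrophil genes 3 of 6 (S100a9 -4.37, S100a8 -3.66 and Retnlg -3.22). The part of these differences was not tested. Among the genes of the pathway, 1 of 2 NK receptors tested was lower (Fcgr3, -2.24), 1 of 7 adaptors higher (Hcst, the adaptor of NKG2D, 0.95 ± 0.30, adjusted p = 0.0374) and 2 lower (Tyrobp, -2.12, and Fcer1g, -3.05). Of 8 granule and effector genes, Ccl3 (-2.29) and Ccl4 (-2.22) were lower and Xcl1 (2.03) was higher. Of 3 transcription factors, Zeb2 was lower (-1.73). Tyrobp, Fcer1g, Fcgr3 and Zeb2 are also carried by myeloid cells. Of 4 monocyte and macrophage genes tested, 3 were called lower in node (Lyz2 -3.97, F13a1 -2.56 and Ccr2 -2.23). The other, Ly6c2, was fitted higher in node, with an unadjusted limma p under 0.05, and was not called. It stood at 114 to 342 UPM in node and 0 to 634 in blood. Of 11 T cell genes 9 were called higher: Cd8b1 (2.92), Cd3d (2.76), Lck (2.68), Cd3g (2.55), Thy1 (2.32), Bcl11b (2.24), Cd3e (2.16), Cd8a (1.87) and Cd5 (1.84). The muscle gene Acta1 was also called higher (1.74).

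Whether the effect of state differed between the organs was tested as an interaction, and no member passed. Of 4880 genes 0.0% were called, with 431 at an unadjusted p under 0.05, and limma without a trend called 0 as well. Nkg7 had the smallest p of the members, at 2.87 ± 0.89 (unadjusted p = 0.00372, limma adjusted p = 0.461), its differences within blood and within node being -2.28 and 0.55. A pseudocount of 50 or 1 moved Nkg7 to 1.45 or 5.07 and Gzma to 1.41 or 6.09, and the smallest adjusted p of Nkg7 over all alternatives was 0.0648 (without S2). Gzma was at 3.03 ± 1.28 (unadjusted p = 0.0265, adjusted p = 0.505), and the median gene at 0.59. Klrd1 (0.69 ± 1.01) and Klrk1 (-0.19 ± 1.21) had adjusted p of 0.852 and 0.978.

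The organs with 1 mouse per state have no replicate check and no test, and their values compare 2 samples only. Their labels were set against marker genes: 5 thymocyte genes summed to 1231 and 637 UPM in thymus, 4 lung epithelium genes to 21480 and 2372 in lung, 4 keratinocyte genes to 1777 and 1031 in skin and 5 fibroblast genes to 14259 and 22114 in joint, for the healthy and CIA mouse. The 4 skeletal muscle genes summed to 1955 in the muscle of S1 and to 48.0 in that of H6, so the library labelled muscle of H6 held little of its defining genes. In these muscles of S1 and H6, neutrophil genes summed to 18630 and 105216 UPM, B cell genes to 78.0 and 857 and T cell genes to 28.4 and 525. The pairs from lung and muscle were also of different kinds, the libraries of H6 lung and S1 muscle being among the 11 that kept single-unit genes and those of S1 lung and H6 muscle among the other 19. The part of these differences was not tested. The spleen held all 8 members in S1 and 6 in H6. Of the 5 members at a mean of 25 UPM or more, all were lower in S1, where the median gene stood at 0.13. Klrk1 (49.9 in H6, 21.6 in S1) and Ncr1 (40.5 and 17.3) passed this limit through H6. Under it fell Gzmb and Prf1, higher in S1, and Klrb1c, lower in S1, so the count is partly set by the limit. After trimmed-mean scaling, 2 members were past a log2 difference of 1, Gzma (-1.38) and Klrd1 (-1.83), against 15.1% of 5813 genes past it in that direction. Of all genes 1200 were higher and 878 lower by that size, and 781 and 1342 when scaled by totals alone. Neutrophil genes summed to 97971 UPM in the spleen of S1 and 4403 in that of H6, and erythroid genes to 91715 and 519. Their part in the members' levels was not tested. Gzmb and Prf1 were listed in the spleen of S1 and at 0 in that of H6. In thymus, Gzma (0.41) was the member over the level limit and was not past a difference of 1, as 17.1% of genes were in either direction. In muscle Klrd1, at 35.4 in H6 and 61.5 in S1, was likewise not past it, against 54.3% of genes. Nkg7 was listed in the muscle (31.2) and skin (19.7) of H6 and at 0 in those of S1, and the reverse in joint, where it stood at 15.9 in S1. In lung, Klrk1 was at 48.2 in H6 and listed at 0 in S1, and Gzma at 153 in S1 and listed at 0 in H6, so no fold is given for either.

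Barcodes listing several members together were counted in each library. At least 4 of the 8 members were listed in 13 of 27 barcodes of H3 blood, 72 of 306 of H6 blood, 84 of 934 of H7 blood, 42 of 167 of H6 spleen and 46 of 532 of S1 spleen. No such barcode was found in either library of H4 blood or in the 62, 97 and 173 barcodes of the CIA blood libraries of S6, S7 and S2. The count could not be reached in S6, S7 or 1 library of H4, which listed 3, 0 and 3 members in all, so the states are not compared by it. Nor could it be reached in 4 of 9 node libraries (H4, H6 and H7) or in any joint, lung, muscle or skin library, which each listed 3 members or fewer, and the organs are not ranked by it. Lymph node held 14 of 347 in H3 and 28 of 369 and 16 of 273 in the 2 libraries of S7, and thymus 12 of 684 in H6. Barcodes are not replicates and share neighbours: the 72 in H6 blood were 31 distinct profiles and the 42 in H6 spleen were 11. Barcodes with any member made up 98.4% of those in S6 blood and 0% in S7 blood.

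**Figure D3:**
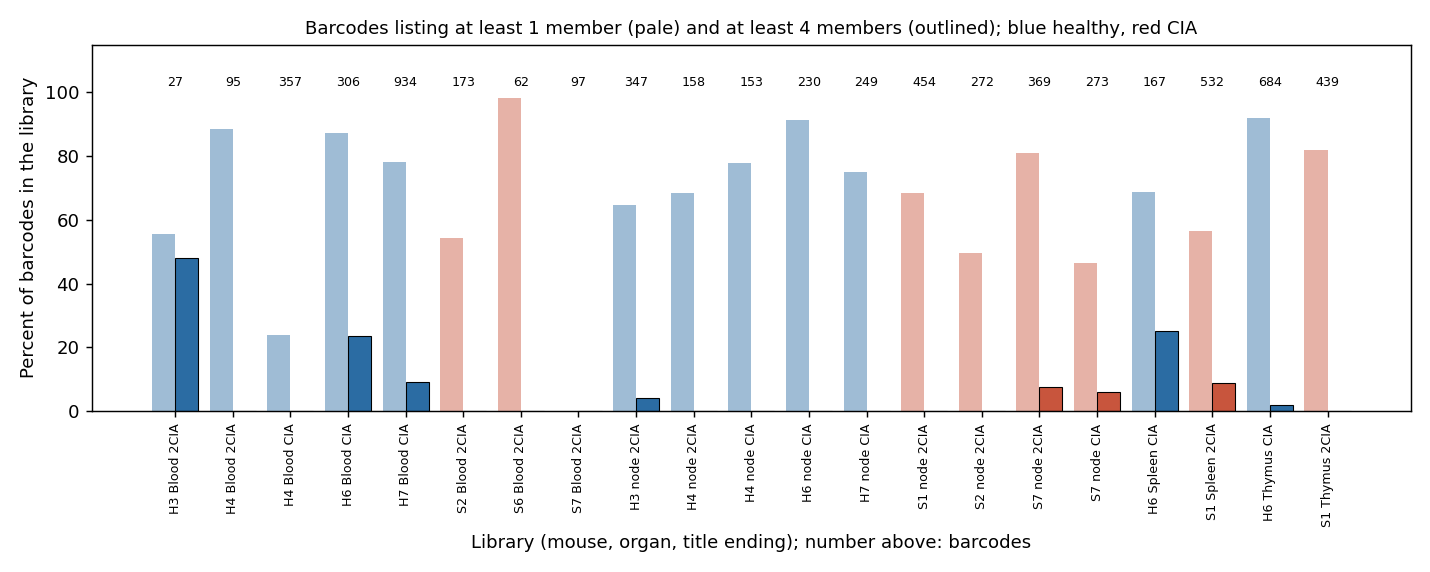
Percent of barcodes in each blood, lymph node, spleen and thymus library listing at least 1 member (pale bars) and at least 4 members (outlined bars), with the barcodes per library above. Outlined bars stand in 3 of 5 healthy blood libraries and in both spleens; among the CIA blood libraries, those of S6 and S7 listed fewer than 4 members in all and could have none.

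The thymus listed Gzma, and at lower levels Nkg7, Klrd1 and Klrk1, with Gzmb, Prf1, Ncr1 and Klrb1c listed at 0. Gzma was listed in 596 of 684 barcodes of H6 and 310 of 439 of S1. Of these 906 barcodes, 113 listed Nkg7 (12.5%), 99 Klrd1 (10.9%) and 86 Klrk1 (9.49%), and 0 listed Gzmb, Prf1, Ncr1 or Klrb1c. Over all barcodes of H6 and S1, Nkg7 was listed in 15.6 and 11.4%, Klrd1 in 12.7 and 15.3% and Klrk1 in 10.1 and 12.3%. In the barcodes with Gzma, Nkg7 was at 14.5 UPM and Klrd1 at 12.4, and in the 217 without Gzma at 40.4 and 73.7. Genes of immature T cells were listed on both sides: Rag1, of receptor gene recombination, stood at 240 with and 266 without Gzma in H6 and at 72.5 and 116 in S1. Dntt, the enzyme that adds nucleotides at the junctions, stood at 524 and 463 in H6 and 348 and 316 in S1. Cd8b1 was lower with Gzma in both mice, at 396 against 492 and 144 against 395. Cd4, Cd8a and Ccl5 were also lower with Gzma in both mice. Tyrobp, an adaptor of NK and myeloid cells, was higher in both (6.33 against 1.61 in H6 and 14.6 against 6.32 in S1). So was the neutrophil gene S100a8 (92.2 against 61.3 and 1036 against 909). Cd3e was higher in 1 and lower in 1.

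Genes listed beside Nkg7 were compared within each library of blood, lymph node and spleen, and differences between these organs were not tested. The counts are of libraries, not mice: H4 gave 2 in blood, and H4 and S7 gave 2 each in lymph node. In the 6 blood libraries with enough barcodes of both kinds, at least 10 each, the chemokine Ccl5 was higher in barcodes with Nkg7 than in those without in 6 of 6, for example 537 against 106 UPM in H6 and 347 against 93.4 in S2. Eomes, a transcription factor of NK cells and memory T cells, and Klre1, an NK receptor, were listed in 3 of these libraries and higher in 3 of 3. In H6, Eomes stood at 129 against 3.67. Cd79a, a B cell receptor chain, was lower in 6 of 6, the adaptor Tyrobp in 5 of 6 and the CD8 chain Cd8b1 in 3 of 4. Cd3e was higher in 4 of 6, Cd8a in 2 of 3, Cd4 in 2 of 3, Gzmm, another granzyme, in 1 of 2 and the neutrophil gene S100a8 in 3 of 6. In lymph node, Cd8a, a chain of the CD8 coreceptor, was listed in 7 of 9 libraries and higher beside Nkg7 in 7 of 7. It stood at 150 against 76.9 in 1 library of S7 and at 16.5 against 14.3 in H7. Cd8b1 was higher in 6 of 9 libraries, Gzmm in 4 of 5, Eomes and Klre1 each in 2 of 2, Ccl5 and Cd3e each in 5 of 9, Tyrobp in 4 of 8, Cd4 in 3 of 7 and S100a8 in 3 of 8. Cd79a was lower in 9 of 9. The counts depended on the member chosen: beside Klrd1, Cd8a was higher in 4 of 7 node libraries, and beside Gzma in blood, Cd8b1 was higher in 3 of 4, Tyrobp in 4 of 7 and Cd8a in 0 of 3. Of 1051 node barcodes with Nkg7, 680 listed Klrd1 (64.7%, and 57.0% of the 1194 with Klrd1). Over all 2505 node barcodes, Klrd1 was listed in 47.7% and Nkg7 in 42.0%. Beside Nkg7, 63 (5.99%) listed Prf1 and 32 (3.04%) Gzma, where 71 and 83 of the 2505 listed them. In both spleens Ccl5, Klre1, Tyrobp, Cd3e and S100a8 were higher beside Nkg7 and Cd79a and Cd4 lower, while Cd8a and Cd8b1 were higher in 1 and lower in 1. Ccl5 stood at 1821 against 479 in H6 and 407 against 66.0 in S1. Since a barcode includes its neighbours, these are descriptions of shared profiles and carry no test.

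**Figure D4:**
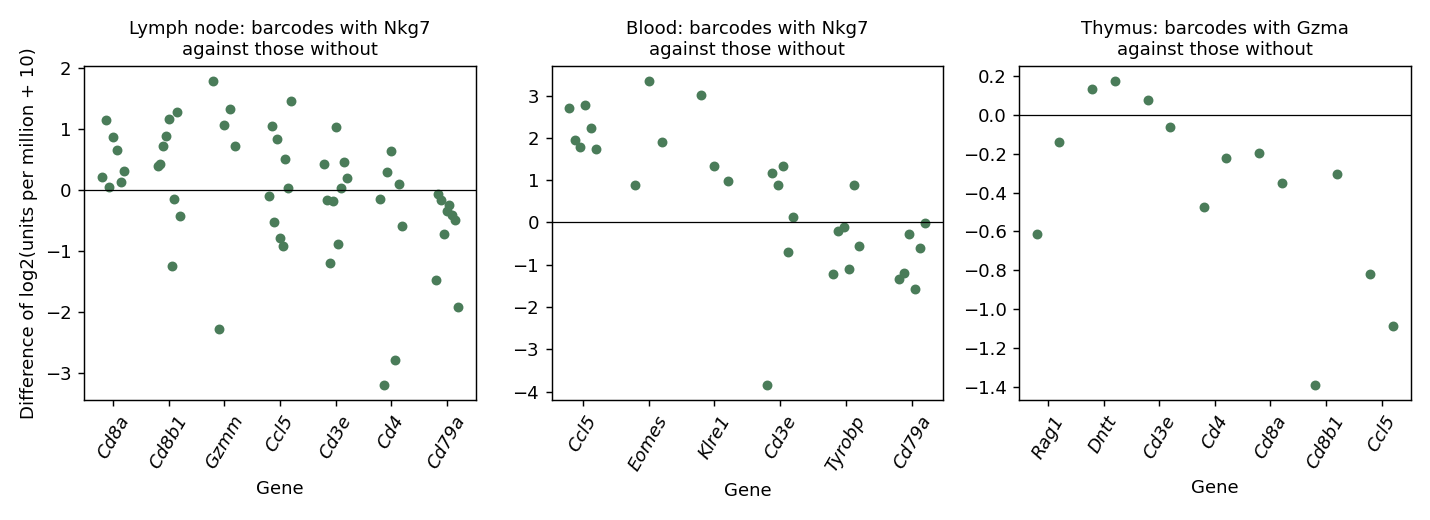
Difference of the log2 of UPM plus 10 between barcodes that list a member and those that do not, 1 point per library: Nkg7 in lymph node and blood, Gzma in thymus. Points above 0 mean a higher level beside the member, as for Cd8a in 7 of 7 lymph node libraries and Ccl5 in 6 of 6 blood libraries, and Cd79a lies below 0 in all blood and lymph node libraries plotted.

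Across the 26 samples of a mouse and organ, Nkg7 and Klrd1 had a rank correlation of 0.70 and were both above 0 in 17. Klrk1 and Klrd1 had 0.63 (both above 0 in 16) and Gzma and Nkg7 0.19 (both in 11). Ncr1 and Klrb1c had 0.71, but were above 0 in 6 and 3 samples, together in 3, so most samples were ties at 0. These samples share mice, organs and the 2 kinds of library, so the values are descriptions. Among the 5413 non-members that averaged 25 UPM or more, the 10 most like the summed members by the same measure were Dock2 (0.83), Dnajc9 (0.80), Map4k2, Cntrl, Arhgap15, Sema4d, Aff3, Chaserr, Smc6 and Synrg (0.75).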

How the data were processed

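The authors made single-cell libraries with Seq-Well and deposited 1 table of whole-number signal per gene and barcode. Per the study's methods, reads were aligned with STAR to GRCm38 and the values were smoothed over 12 nearest neighbours, so the deposited signal is not a read count and no count model was used. The submitters' processing notes name other builds too. Here the signal was summed per mouse and organ (2 libraries of 1 mouse and organ were pooled) and given per 1000000 units (UPM); depth in reads is unknown. limma 3.58.1 (R 4.3.3) with a trend was fitted to log2(value + 10) after trimmed-mean scaling, over all genes with a mean of at least 25, two-sided, with Benjamini-Hochberg adjustment over all genes; calls are at an adjusted p under 0.05. Members under the filter had exact permutation tests (scipy 1.17.1). The scripts were tested on simulated data. Blood and lymph node came partly from the same animals (H3, H4, H6, H7, S2 and S7), so mouse number pairs them by animal; the deviations of their 2 organs correlated at -0.28 to 0.18. Libraries were prepared per sample. Repeat libraries of 1 mouse and organ count as 1 replicate in the tests, while the comparisons of barcodes are counted per library. Barcode sequences in more than 1 library numbered 13 of 8255, and 4590 of 8282 profiles were distinct. All 8 members were named. Of the genes of the 17 marker lists, those called in a comparison and the one with the smallest p of its list in blood or lymph node were named. The members and lists were chosen with earlier results of these data known. Klrd1 had no promoter window.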

Additional observations from a re-analysis of the deposited data

Results flagged for a closer look

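Among 12 groups of 4 healthy mice in which a member was listed, 4 held a mouse whose gap to the nearest other mouse, divided by the whole range, was above the Dixon limit of 0.829. Chance gives about 1 in 20 groups for normally distributed values, a rate that does not hold for values with many zeros, and where 3 of 4 mice are listed at 0, as for Klrb1c and Ncr1 here, the ratio is 1 by construction. In blood these were Prf1 in H3 (120 UPM) and Klrb1c in H6 (10.8, the other mice being listed at 0). In lymph node they were Ncr1 in H3 (12.8, the others at 0) and Klrk1 in H4, which was listed at 0. The H3 blood library held 27 barcodes, the fewest of all.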

How the results depend on the processing

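In blood, lymph node and the interaction, 0 members were called under every alternative run. For lymph node against blood, 1 member was called in each run but the one with the libraries ending in 2CIA alone (0 called); the replicate block by mouse kept 1 call, with 508 genes called, and changed no other member's call. The genes called in blood numbered 10, and 16 (total only), 0 (pseudocount 1), 26 (pseudocount 50), 24 (no filter), 24 (filter at 10) and 0 (no trend); in lymph node 1, and 6 (no filter), 0 (no trend) and 3 (2CIA only). Lymph node against blood called 677, and 398 (median of ratios), 368 (no globin), 289 (pseudocount 1), 194 (no filter) and 399 (no trend), and the interaction 3 with a pseudocount of 50. Leaving out 1 mouse gave 0 to 15 genes in blood (0 without S2), 0 to 7 in lymph node and 97 to 775 in the last contrast (97 without S2, 149 without H4). Signs turned, with no call on either side, for Klrk1 in blood (-0.56 with a pseudocount of 1, -0.086 with distinct profiles, -0.37 without H4, -0.96 without S6, and up to 1.19 without S7), Klrd1 in blood (0.12 without S7 to -1.77 without S6, and -2.02 with a pseudocount of 1) and in lymph node (0.00020 without H6; down to -0.52 without S7), and in the interaction for Klrk1 (1.02, pseudocount 1) and Klrd1 (-0.65 without S7 to 1.52 without S6, and 1.71 with a pseudocount of 1). The cause was not tested.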
